A study of Homo sapiens with 6 samples.

Results

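The response of U2OS cells, a human osteosarcoma line, to etoposide was measured by RNA-seq as the change in each listed gene between 2 etoposide libraries and 2 untreated control libraries, 4 of the 6 libraries of the series. The libraries were chosen by treatment label and the genes by their presence in the count lists. Every gene with a full line in all 4 libraries entered, which gave 280 of the 67140 genes that the etoposide libraries list, and 118 of the 280 passed the filter on low counts and were tested. The study asked how anticancer drugs alter chromatin, and it used etoposide beside adriamycin, a second drug acting on the same enzyme. All cells were wild type by label and were grown in the same medium. The etoposide cells received 100 μM etoposide for 4 h, and the control cells received no treatment. The labels name no vehicle for the control cells, so vehicle and drug cannot be told apart.

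Etoposide is a chemotherapy drug that stabilizes topoisomerase II on the DNA it has cut, so that transient cuts persist as double-strand breaks. Such breaks activate the ATM kinase and p53, a transcription factor that is wild type in U2OS cells and raises cell cycle inhibitors and apoptosis genes. Topoisomerase II also relieves the supercoiling that builds up in transcribed genes. The first genes of the list lie at the start of the short arm of chromosome 1, where TP73, the TNF receptor genes, SKI and PRDM16 are found.

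The 280 genes lay between bases 12010 and 7943165 of chromosome 1 (GRCh38, GENCODE release 44) and comprised 104 protein-coding genes, 106 long noncoding RNA (lncRNA) genes and other classes. Their summed counts were 110318 and 79278 for the controls and 113448 and 75327 with etoposide, which are sums over the list and not the depth of sequencing. In both etoposide libraries, which held 21450766 and 14244235 counts in all, the 280 genes took 0.529% of the counts. AGRN alone took 17.3% to 19.96% of the sums. All changes are therefore relative to these genes, and a shift common to the whole region would not be seen. The cell line was checked in the etoposide libraries, over markers read from the full list. Of the mesenchymal and osteoblast markers, COL1A1 was at 3463 and 3624 CPM (counts per 1000000 counts of the library), SPARC at 1153 and 1113 CPM and VIM at 855 and 786 CPM. CDH11 was at 5.69 and 6.81 CPM, ALPL at 10.02 and 9.20 CPM and RUNX2 at 4.71 and 4.84 CPM. COL1A2, the partner chain of COL1A1 in type I collagen, was at 0.233 and 0.140 CPM, and TWIST1 had no count. The labels call the cells epithelial, and of the epithelial markers KRT8 was at 938 and 848 CPM, KRT18 at 231 and 214 CPM, EPCAM at 13.7 and 11.9 CPM and CDH1 at 1.40 CPM in both, while KRT19 and ESRP1 had at most 1 count. The blood markers PTPRC, CD3E and LYZ were at or under 0.421 CPM. Of the endothelial markers PECAM1 was at 1.03 and 0.983 CPM and CDH5 at 0.186 and 0.421 CPM, and of the neural markers SNAP25 was at 8.25 and 7.79 CPM and SYP at 5.83 and 6.88 CPM, both above RUNX2. The labels number the replicates but do not say that they were separate cultures. For its expression plot of transposable elements, the paper describes the replicates of each condition as technical. For Hi-C it uses the same term for cells that were cultured independently. The p-values therefore measure only the spread between these libraries, which may be technical.

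Promoter sequences are shown for the 4 genes that rose at an adjusted p under 0.01 and for PLEKHN1, the gene with the most negative log2 fold change among those that fell. Each runs 5′ to 3′ on the strand of the gene, from 250 bases before to 50 bases after a transcription start in RefSeq (GRCh38.p14), and capitals mark letters that match one of 4 motifs searched on both strands. These motifs were the CCAAT box (CCAAT), the GC box (GGGCGG), the TATA box (TATAAA) and the p53 half-site, the palindromic unit that a pair of p53 molecules binds.
MIB2, chr1:1615250-1615549, plus strand: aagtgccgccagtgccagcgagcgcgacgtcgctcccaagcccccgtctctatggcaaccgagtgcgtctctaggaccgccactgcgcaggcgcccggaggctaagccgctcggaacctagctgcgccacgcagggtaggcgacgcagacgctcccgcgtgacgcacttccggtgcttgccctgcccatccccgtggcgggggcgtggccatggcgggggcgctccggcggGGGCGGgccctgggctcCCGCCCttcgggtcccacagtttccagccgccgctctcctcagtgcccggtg
TNFRSF14, chr1:2556121-2556420, plus strand: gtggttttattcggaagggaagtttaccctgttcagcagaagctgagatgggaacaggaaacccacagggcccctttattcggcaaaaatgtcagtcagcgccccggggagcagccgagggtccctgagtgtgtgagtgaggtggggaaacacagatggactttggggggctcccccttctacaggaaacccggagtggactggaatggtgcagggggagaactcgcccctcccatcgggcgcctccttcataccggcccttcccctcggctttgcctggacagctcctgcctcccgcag
CCNL2, chr1:1399286-1399585, minus strand: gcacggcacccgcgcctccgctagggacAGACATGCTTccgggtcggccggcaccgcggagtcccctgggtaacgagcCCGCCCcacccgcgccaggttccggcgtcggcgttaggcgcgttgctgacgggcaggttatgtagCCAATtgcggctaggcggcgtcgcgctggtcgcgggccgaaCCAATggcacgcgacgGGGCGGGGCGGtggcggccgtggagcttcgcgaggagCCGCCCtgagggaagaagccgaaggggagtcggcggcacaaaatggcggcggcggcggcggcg
ISG15, chr1:1013247-1013546, plus strand: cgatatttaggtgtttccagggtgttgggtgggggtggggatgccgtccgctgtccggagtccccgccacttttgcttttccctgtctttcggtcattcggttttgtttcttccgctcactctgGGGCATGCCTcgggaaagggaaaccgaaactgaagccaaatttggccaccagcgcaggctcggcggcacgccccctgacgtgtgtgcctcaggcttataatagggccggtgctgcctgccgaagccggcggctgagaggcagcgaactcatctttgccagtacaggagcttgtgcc
PLEKHN1, chr1:966232-966531, plus strand: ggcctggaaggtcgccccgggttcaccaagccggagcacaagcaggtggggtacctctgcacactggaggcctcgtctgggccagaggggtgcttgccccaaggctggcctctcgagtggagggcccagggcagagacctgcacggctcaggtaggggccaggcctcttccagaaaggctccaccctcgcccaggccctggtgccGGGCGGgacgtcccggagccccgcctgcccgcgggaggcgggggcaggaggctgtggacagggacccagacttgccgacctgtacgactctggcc
The MIB2 promoter shown held 2 GC boxes, and a second annotated start of MIB2 held none of the 4 motifs. TNFRSF14 held none either, and PLEKHN1 held 1 GC box. ISG15 held 1 p53 half-site and no other match, and CCNL2 held 1 p53 half-site, 2 CCAAT boxes and 4 GC boxes, a pair of which share a base. The p53 half-site was present in 6.63% of the 35116 RefSeq promoters, the GC box in 45.0%, the CCAAT box in 34.6% and the TATA box in 11.5%. RefSeq promoters were matched for 72 of the 118 tested genes, and 6 of the 72 held a p53 half-site in at least 1 promoter. Of the 4 genes that rose 4 were matched and 2 held a p53 half-site, and of the 16 genes that fell 10 were matched and 0 held one. A match describes letters in the sequence and is not a binding site.

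Etoposide changed few of the tested genes by more than 2-fold. More genes moved by smaller amounts, mostly downwards under the main scaling. With edgeR's quasi-likelihood test and Benjamini-Hochberg adjustment over the 118 genes, 2 genes were higher (1.69%) and 3 were lower (2.54%) with a log2 fold change beyond 1 in size and an adjusted p below 0.01, 4.24% in either direction. MIB2 and TNFRSF14 rose, and PRDM16, PLEKHN1 and the lncRNA ENSG00000284703 fell. TNFRSF14 passed the filter on low counts only through the etoposide libraries, where it was high. At the same adjusted p with any fold, 4 genes were higher (3.39%) and 16 were lower (13.6%), 16.9% in all. The median change over the 118 genes was 0.03 on the log2 scale, and 75 genes lay within 0.5 of zero. Both etoposide libraries lay above both control libraries in 40 of the 118 genes (33.9%) and below both in 45 (38.1%). With 2 libraries per group, such separation was common. In bulk RNA, fewer cells expressing a gene and less RNA per cell cannot be told apart. Without either etoposide library, 1 library was left in that group, so the fit could not measure the spread of the group. The called genes kept their direction in those fits. Their p-values are not comparable with those of the 4-library fit, and a call lost there does not show that a change was absent. This holds for all fits below with 1 etoposide library. Without control 2, 4 genes were higher over 2-fold and 11 were higher with any fold. Upper-quartile scaling moved the median change by 0.33 and gave 36 higher and 7 lower genes with any fold, library size alone moved it by 0.18 and gave 15 and 15, and library size without AGRN moved it by 0.15 and gave 9 and 15. The balance between higher and lower genes under 2-fold thus depended on the scaling.

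**Figure D1:**
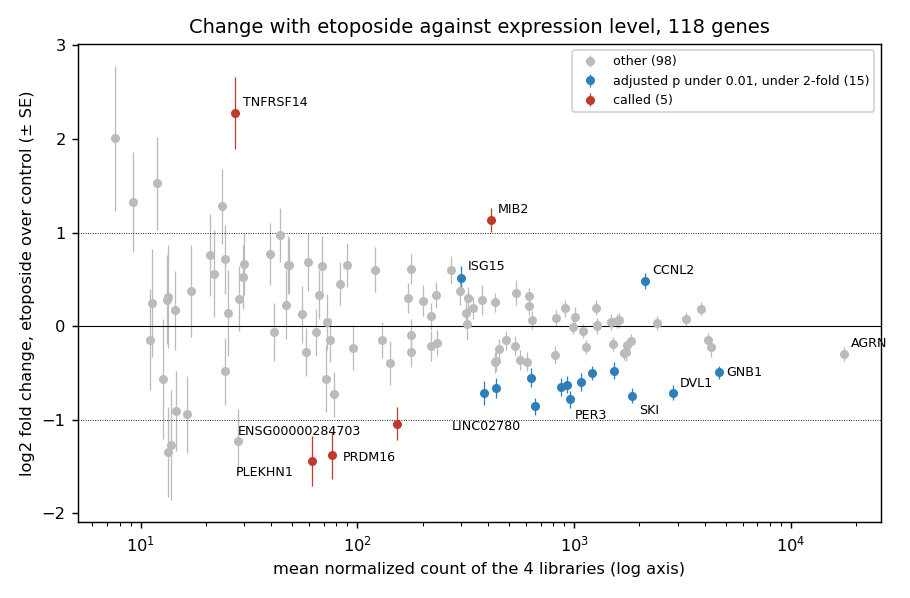
Log2 fold change of etoposide over control (± SE) against the mean normalized count of the 4 libraries on a log axis, for the 118 tested genes. The 5 genes over 2-fold at an adjusted p under 0.01 are red, the 15 genes under 2-fold at that adjusted p are blue, and the other 98 are grey, with wider errors at low counts.

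MIB2 encodes a ubiquitin ligase that promotes the internalization of Notch ligands, a step that activates the receptor on the neighbouring cell. It had 316 and 185 counts in the controls and 781 and 458 with etoposide. Both etoposide libraries lay above both control libraries after normalization, at 588 and 546 against 284 and 229, as in 33.9% of all tested genes. The mean rose from 257 ± 39.2 to 567 ± 29.4 normalized counts (SD, n = 2), a 2.20-fold increase (log2 fold change 1.13, SE 0.124, adjusted p = 9.71e-05 by edgeR). MIB2 lies at chr1:1615454-1630605 on the plus strand, and its exons overlap those of ENSG00000272106 on the other strand, which these counts may not separate.

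The listed genes of the HES family, transcriptional repressors that include Notch targets, were close to silent in both groups. HES4 had no count in either control library and 4 and 1 counts in the etoposide libraries. HES5 had counts in etoposide 2 alone (2 counts), HES2 had 3 counts in control 2 and 2 in etoposide 1, and HES3 had none. None of these 4 genes passed the filter, so MIB2 was the only tested gene of the 5 on the Notch list. A difference in these HES genes was not detectable at this depth.

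TNFRSF14 encodes HVEM, a receptor of the TNF family that binds the cytokine LIGHT and the inhibitory receptor BTLA. It had 10 and 8 counts in the controls and 68 and 33 with etoposide. The groups did not overlap, with both etoposide values above both control values as in 33.9% of all tested genes. The mean rose from 9.45 ± 0.638 to 45.3 ± 8.36 normalized counts (SD, n = 2), which was 4.84-fold. The log2 fold change was 2.28, with a 95% interval from 1.42 to 3.13 and an adjusted p of 0.00119 by edgeR. Both controls lay under the limit of the filter on low counts. The gene was therefore tested only through the etoposide libraries, where it was high, and its test is not independent of that rise. Its exons overlap TNFRSF14-AS1 on the other strand, and the reads of the pair may not have been separated.

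The TNF receptor family had 3 further members on the list. TNFRSF25, a death receptor, had 201 and 167 counts in the controls and 210 and 136 with etoposide, with a log2 fold change of −0.27 and an adjusted p of 0.197. TNFRSF4 and TNFRSF18, receptors of activated T cells, were below the filter. TNFRSF4 had 6 and 0 counts in the control and 10 and 12 in the etoposide libraries, and TNFRSF18 had 1 and 0 against 11 and 2. Thus 1 of the 2 tested members on the list rose and 0 fell, beside 3.39% higher and 13.6% lower over all tested genes. With 2 tested members, 1 of which passed the filter only through the etoposide libraries, the count does not describe the family. TNFRSF9, a receptor of the same family that was looked up after the values were seen, had 1180 and 715 counts in the control and 1363 and 899 in the etoposide libraries, and its normalized groups overlapped (log2 fold change 0.10, adjusted p = 0.436).

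PRDM16 and SKI are transcriptional co-regulators that bind each other, and SKI represses the SMAD factors of TGF-β signalling. Both tested genes of this list fell, beside 13.6% lower over all tested genes. The list holds only these 2 genes and was drawn up with earlier results of these data known. Their shared direction is therefore not independent evidence. PRDM16 had 138 and 78 counts in the controls and 54 and 38 with etoposide, so that its lowest normalized control value (96.6) was above its highest etoposide value (45.3). Its mean fell from 110 ± 19.6 to 43.0 ± 3.30 normalized counts (SD, n = 2), with a log2 fold change of −1.38, an SE of 0.253 and an adjusted p of 0.00151. SKI had far more counts, 2643 and 1815 in the control and 1749 and 1219 in the etoposide libraries. It fell less, by 0.74 on the log2 scale (SE 0.0811, adjusted p = 9.71e-05), and the difference between the changes of the 2 genes was not tested. Without etoposide 1 or etoposide 2 the adjusted p of SKI by edgeR was 0.0785 and 0.0334.

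PLEKHN1 encodes a pleckstrin homology domain protein. It had 94 and 77 counts in the controls and 42 and 29 with etoposide. Both normalized etoposide values lay below both control values, as in 38.1% of all tested genes. The mean fell from 90.0 ± 7.57 to 33.1 ± 2.101 normalized counts (SD, n = 2; log2 fold change −1.44, SE 0.267, adjusted p = 0.00155). The last part of PLEKHN1 overlaps PERM1, a regulator of muscle metabolism on the opposite strand, over 668 exon bases. PERM1, named after its values were seen, went from 41 and 34 to 21 and 15 counts (log2 fold change −1.23, adjusted p = 0.0199), and the 2 genes may share reads.

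The lncRNA ENSG00000284703 lies at chr1:4012921-4019508 on the minus strand, next to the lncRNA LINC02780 on the plus strand. It had 219 and 170 counts in the control and 122 and 90 in the etoposide libraries, and fell from 204 ± 9.42 to 99.6 ± 11.0 normalized counts (SD, n = 2; log2 fold change −1.04, SE 0.180, adjusted p = 0.00128). This is close to the 2-fold limit, and the change was under 2-fold with 3 scalings, with DESeq2, without control 2 (−0.94) and without etoposide 1 (−0.89). LINC02780 had 944 and 693 counts in the control and 652 and 376 in the etoposide libraries, and fell by 0.86 on the log2 scale (SE 0.0928, adjusted p = 9.71e-05, or 0.0758 and 0.0334 without etoposide 1 or etoposide 2). These were the only 2 of the 29 tested lncRNA genes that changed at an adjusted p under 0.01 in the 4-library fit, 6.90% beside 16.9% of all tested genes.

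Leaving out 1 etoposide library kept the direction of all 5 genes, while the calls were lost in fits without a replicate in that group. The adjusted p by edgeR without etoposide 1 and without etoposide 2 was 0.0785 and 0.0348 for MIB2, 0.0785 and 0.0405 for TNFRSF14 and 0.123 and 0.0580 for PRDM16. It was 0.0916 and 0.0494 for PLEKHN1 and 0.0785 and 0.0348 for ENSG00000284703. Over the 4 omissions the log2 fold change ranged from 1.06 to 1.34 for MIB2, from 2.08 to 2.49 for TNFRSF14, from −1.48 to −1.14 for PRDM16, from −1.50 to −1.30 for PLEKHN1 and from −1.09 to −0.89 for ENSG00000284703.

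**Figure D2:**
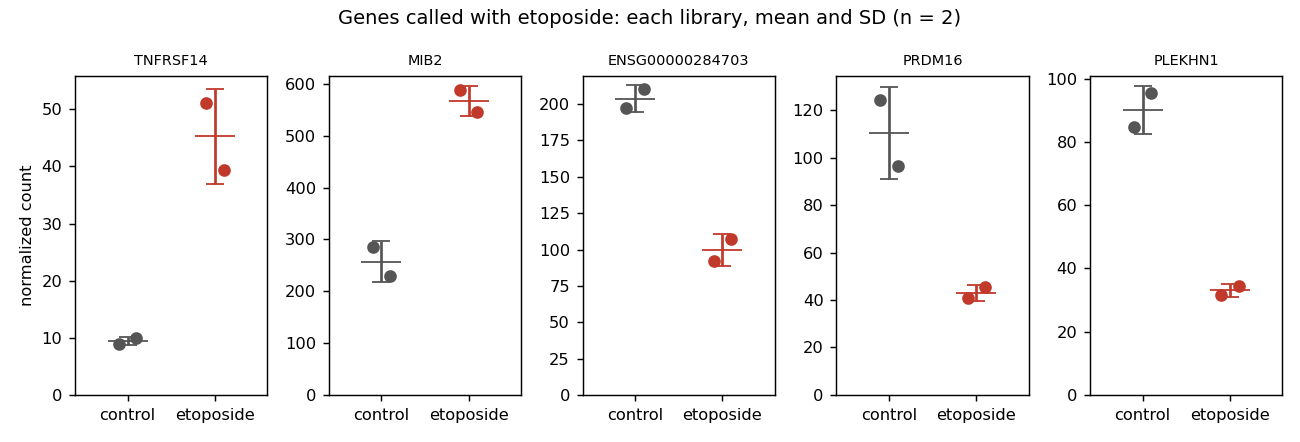
Normalized counts of the 5 genes over 2-fold, with 1 point per library and the mean and SD of each group (n = 2), on axes that start at 0. In each panel the control and etoposide points do not overlap, with TNFRSF14 going from a mean of 9.45 to 45.3 and PRDM16 from 110 to 43.0. Of all 118 tested genes, 33.9% had both etoposide libraries above both controls and 38.1% had both below.

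Among genes that changed by less than 2-fold, CCNL2 and ISG15 rose. CCNL2 encodes cyclin L2, a partner of the CDK11 kinases in the control of splicing. It had 2007 and 1392 counts in the control and 3054 and 2220 in the etoposide libraries, an increase of 1.40-fold (log2 fold change 0.48, SE 0.0857, adjusted p = 0.00144). ISG15, a ubiquitin-like modifier induced by interferon, had 264 and 206 counts in the control and 454 and 305 in the etoposide libraries. Its increase was 1.43-fold (log2 fold change 0.52, SE 0.122, adjusted p = 0.00922). Normalized values of both genes were higher in each etoposide library than in each control library, as in 33.9% of all tested genes. Both missed the threshold where only 1 etoposide library was left, with log2 fold changes of 0.44 to 0.61 for CCNL2 and 0.53 to 0.60 for ISG15. ISG15 also missed the threshold without control 1 (adjusted p = 0.0256), with DESeq2 and where at least 10 counts were required in every library.

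The genes of smallest p that fell by less than 2-fold, after LINC02780 and SKI, were DVL1, PER3 and GNB1. DVL1, a transducer of Wnt signals, had 4191 and 2686 counts in the control and 2862 and 1830 in the etoposide libraries (log2 fold change −0.71, SE 0.0804, adjusted p = 0.000101). PER3, a component of the circadian clock, had 1386 and 938 counts against 885 and 623 (log2 fold change −0.78, SE 0.0903, adjusted p = 0.000102). It shares 482 exon bases with ENSG00000236266 on the opposite strand, a gene looked up afterwards, and the 2 may share reads. GNB1, a beta subunit of heterotrimeric G proteins, had 5925 and 4529 counts against 5240 and 3199 (log2 fold change −0.50, SE 0.0698, adjusted p = 0.000508). In each of these 3 genes both normalized etoposide values were below both control values, as in 38.1% of all tested genes. KLHL17, an actin-binding Kelch protein chosen after its values were seen, fell by 0.62 on the log2 scale (adjusted p = 0.000533). Without either etoposide library these genes too missed the adjusted p of 0.01, at 0.0334 to 0.0790 for DVL1, PER3 and GNB1. GNB1 also missed it without control 2 (log2 fold change −0.40, adjusted p = 0.0193) and with upper-quartile scaling (−0.16, adjusted p = 0.108).

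The p53 family, DNA damage and apoptosis list held 6 genes, all tested. CHD5, a chromatin remodeller and tumour suppressor, fell, with 1496 and 1011 counts in the control and 1068 and 773 in the etoposide libraries (log2 fold change −0.60, SE 0.0919, adjusted p = 0.000675). The other 5 did not pass the test, and 1 of 6 lay near the 16.9% over all tested genes. TP73, which encodes the p53 relative p73, had 544 and 396 counts against 463 and 340 (log2 fold change −0.39, adjusted p = 0.0216). FAAP20, a subunit of the Fanconi anaemia core complex, was level at a log2 fold change of 0.04 (95% interval −0.14 to 0.23). DFFB, the nuclease that cuts DNA between nucleosomes in apoptosis, had 73 and 50 counts against 72 and 43, and its interval from −0.84 to 0.30 on the log2 scale leaves a fall or a small rise possible. NOC2L, an inhibitor of histone acetylation that binds p53, stood at −0.14 (adjusted p = 0.130). The list's median was −0.27, beside 0.03 over all tested genes. CHD5 missed the threshold with upper-quartile scaling (−0.26) and without etoposide 1 or etoposide 2 (adjusted p by edgeR = 0.0785 and 0.0348).

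The list of chromatin and transcription factors held 15 genes, of which 13 lay in the shared list and 9 were tested. PRDM16, SKI, CHD5 and SAMD11 fell, and 0 rose, against 13.6% lower and 3.39% higher over all tested genes. This list, like the others, was drawn up with earlier results of these data known, so its count is not independent evidence. SAMD11, a SAM domain protein that overlaps NOC2L on the other strand, had 881 and 569 counts in the control and 669 and 439 in the etoposide libraries (log2 fold change −0.55, SE 0.0977, adjusted p = 0.00144). The other 5 tested genes missed the threshold. They ranged from TP73 (−0.39) and PHF13, a reader of methylated histone H3 (−0.31, adjusted p = 0.0261), through CAMTA1 (−0.21) and THAP3 (−0.15) to ZBTB48, a telomere-binding zinc finger protein (0.34, adjusted p = 0.0844). The median over the 9 tested genes was −0.39. SAMD11 missed the threshold with upper-quartile scaling (−0.21), without control 1 (adjusted p = 0.0154) and without etoposide 1 or etoposide 2 (adjusted p = 0.107 and 0.0580).

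In the list of RNA processing, nucleolus and ribosome genes all 9 members were tested, 1 rose and 1 fell, and the median was −0.14. The share that passed, 22.2%, lay near the 16.9% over all tested genes. CCNL2 rose as given above. NOL9, a nucleolar kinase of ribosomal RNA processing, fell, with 1587 and 1141 counts in the control and 1355 and 829 in the etoposide libraries (log2 fold change −0.50, SE 0.0772, adjusted p = 0.000675). The CDK11 genes, whose proteins pair with cyclin L, did not pass the test. CDK11B had 905 and 627 counts against 1143 and 698 (log2 fold change 0.09, 95% interval −0.10 to 0.28), and CDK11A had 43 and 28 against 64 and 59 (0.65, −0.03 to 1.33). CDK11A and CDK11B are near-identical copies, so the split of reads between them is uncertain. SSU72, a phosphatase of the RNA polymerase II tail, was at −0.28 (adjusted p = 0.0199), INTS11, the nuclease of the Integrator complex, at −0.15, RPL22 at −0.22 and PUSL1 at 0.02. NOL9 was at −0.16 with upper-quartile scaling (adjusted p = 0.112), and its adjusted p by edgeR without etoposide 1 or etoposide 2 was 0.0758 and 0.0348.

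Signalling genes on the list fell in 3 of 10 tested cases, with 0 higher and a median of −0.21, beside 13.6% lower and a median of 0.03 over all tested genes. DVL1 and GNB1 were 2 of the 3. PRKCZ, an atypical protein kinase C, was the other, with 611 and 421 counts in the control and 429 and 301 in the etoposide libraries (log2 fold change −0.66, SE 0.107, adjusted p = 0.000893). KCNAB2, a potassium channel subunit, was at −0.36 (adjusted p = 0.0261), and SCNN1D and GABRD, both channel subunits with few counts, were at 0.66 each with adjusted p-values of 0.0555 and 0.130. PLCH2 had 9 and 12 counts against 6 and 2 and was not tested. PRKCZ missed the threshold with upper-quartile scaling (−0.33, adjusted p = 0.0179) and without etoposide 1 or etoposide 2 (adjusted p = 0.0785 and 0.0348).

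Mitochondrial protein genes fell in 2 of 5 tested cases, with 0 higher and a median of −0.19, beside 13.6% lower over all tested genes. DNAJC11, a chaperone-like protein of the mitochondrial membranes, had 1144 and 884 counts in the control and 836 and 613 in the etoposide libraries (log2 fold change −0.65, SE 0.0964, adjusted p = 0.000603). ATAD3B, an inner membrane ATPase, had 2113 and 1341 against 1670 and 1100 (−0.48, SE 0.0867, adjusted p = 0.00151). Its close paralog ATAD3A was at −0.19 (adjusted p = 0.0711), and reads of the paralogs may be split uncertainly. MRPL20, a mitochondrial ribosomal protein gene, was level (log2 fold change near 0, 95% interval −0.18 to 0.18), and AURKAIP1 was at 0.06. The call of ATAD3B was lost with 3 other scalings (−0.14 with upper-quartile scaling), without control 1 (adjusted p = 0.0419) and without etoposide 1 or etoposide 2 (adjusted p = 0.154 and 0.0865). DNAJC11 lost it with upper-quartile scaling (−0.32, adjusted p = 0.0129) and without etoposide 1 or etoposide 2 (adjusted p = 0.0785 and 0.0348).

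The remaining lists held 3 genes past the threshold in all. Of the extracellular matrix and cell surface genes 5 of 8 were tested and PLEKHN1 alone fell. AGRN, which encodes the matrix proteoglycan agrin and had the most counts of all, went from 22023 and 15303 to 19580 and 14130 counts and missed the threshold (log2 fold change −0.30, SE 0.0781, adjusted p = 0.0167). Of the 7 cilium, centrosome and cytoskeleton genes NPHP4, a protein of the ciliary transition zone, fell. It went from 524 and 383 counts in the control to 342 and 273 in the etoposide libraries (log2 fold change −0.71, SE 0.128, adjusted p = 0.00147). It shares 212 exon bases with KCNAB2 on the opposite strand, and the reads of the pair may not have been separated. Other genes of the cilium list were higher without passing, among them MORN1 (0.61, adjusted p = 0.0168) and WRAP73 (0.32, adjusted p = 0.0216). ESPN was also higher, with 6 and 0 counts in the control and 19 and 9 in the etoposide libraries (adjusted p = 0.0649). It entered the test only through the etoposide libraries, since both controls lay under the filter on low counts. The list's median was 0.36. NPHP4 missed the threshold with upper-quartile scaling (−0.38, adjusted p = 0.0177) and without etoposide 1 or etoposide 2 (adjusted p = 0.0785 and 0.0334). ISG15 was the single interferon-stimulated gene on the lists.

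Neither the ER, Golgi, peroxisome and lipid transfer genes nor the metabolism genes held a gene past the threshold. All 10 of the former were tested, with a median of 0.11, and TPRG1L, a synaptic vesicle protein gene, came closest with 212 and 197 counts in the control and 455 and 257 in the etoposide libraries (log2 fold change 0.60, adjusted p = 0.0131). The 3 metabolism genes were NADK, which makes NADP (0.20), the coenzyme A kinase family gene PANK4 (0.19) and ACOT7, an acyl-CoA thioesterase (−0.21). Nuclear copies of mitochondrial genes took between 8.51% and 10.0% of the summed counts. Of 7 such copies 3 were tested and 0 passed, with MTND2P28 at −0.22, MTCO1P12 at −0.15 and MTATP6P1 at 0.19, and the origin of their reads is uncertain, since mitochondrial RNA has a near-identical sequence. Among protein-coding genes as a class 76 of 104 were tested, 4 rose and 14 fell, with a median of −0.06. Among lncRNA genes 29 of 106 were tested, 0 rose and 2 fell, with a median of 0.17.

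**Figure D3:**
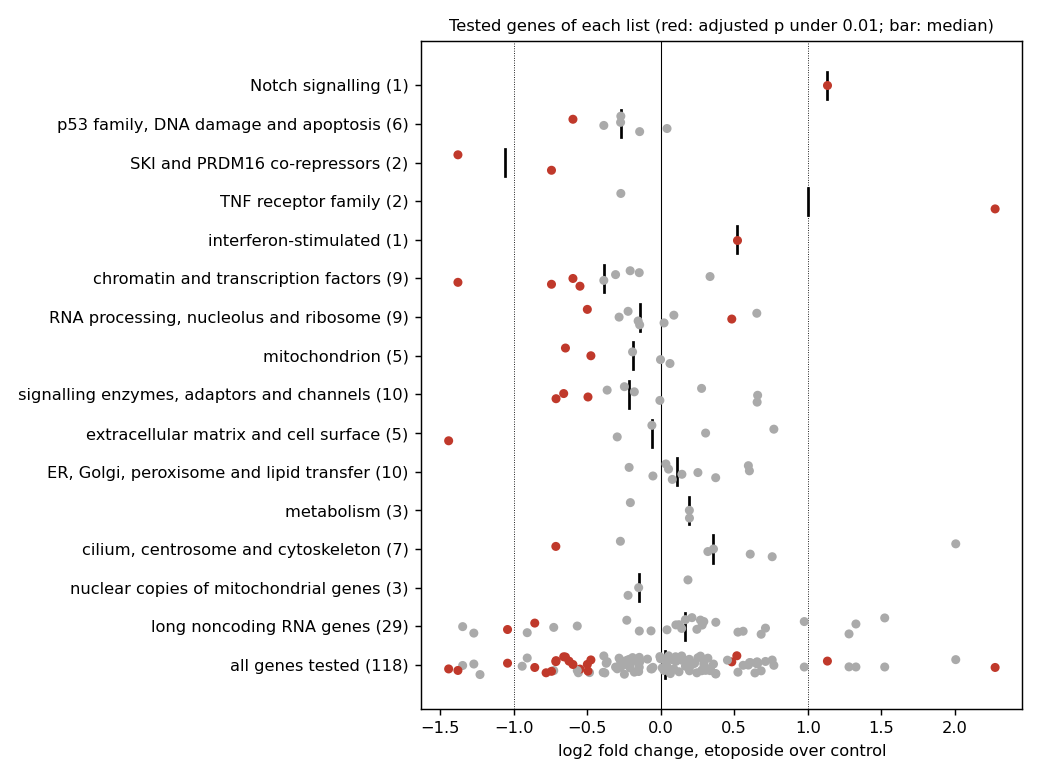
Log2 fold change of etoposide over control for every tested gene of each list, with 1 point per gene, a black bar at the list's median, red points at an adjusted p under 0.01 and the number tested in brackets. The chromatin and transcription factor list has its median at −0.39 with 4 red points below 0, and the list of ER, Golgi, peroxisome and lipid transfer genes has its median at 0.11 with no red point.

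At the end of the shared stretch, the 4 libraries list 60 genes that are not in both adriamycin libraries. Of these 25 were tested, 0 rose and 5 fell at an adjusted p under 0.01, namely NPHP4, CHD5, NOL9, DNAJC11 and PER3, and 0 passed the 2-fold limit. Their median log2 fold change was −0.21. Of the 220 genes that all 6 libraries list 93 were tested, 4 rose and 11 fell, with a median of 0.06 and 16.1% past the adjusted p. The 2 sets were not tested against each other, and 16.9% of all tested genes passed.

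Along the chromosome, genes that rose and genes that fell were interspersed. PLEKHN1, which fell, was followed within a few tested genes by ISG15, which rose, and CCNL2, which rose, lay between DVL1 and ATAD3B, which both fell. Partners that start head to head or lie on opposite strands were looked up after their values were seen, and differences between partners were not tested. PRDM16 was at −1.38 and PRDM16-DT, which starts beside it on the other strand, at 0.68 (adjusted p = 0.104). CAMTA1 was at −0.21. CAMTA1-DT had 7 and 5 counts in the control and 28 and 12 in the etoposide libraries (log2 fold change 1.52, adjusted p = 0.0370). It passed the filter on low counts only through the etoposide libraries, where it was high. PRKCZ and the antisense gene PRKCZ-AS1 were both below 0, at −0.66 and −0.73 (adjusted p of PRKCZ-AS1 = 0.0402), and share 83 exon bases. KLHL21 and PHF13 were at −0.27 and −0.31, and MRPL20, with a log2 fold change near 0, had MRPL20-DT at 0.04 and MRPL20-AS1 at 0.10. Of the partner transcripts named here beside PRDM16, CAMTA1, PRKCZ, KLHL21 and MRPL20, 0 passed the adjusted p of 0.01.

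**Figure D4:**
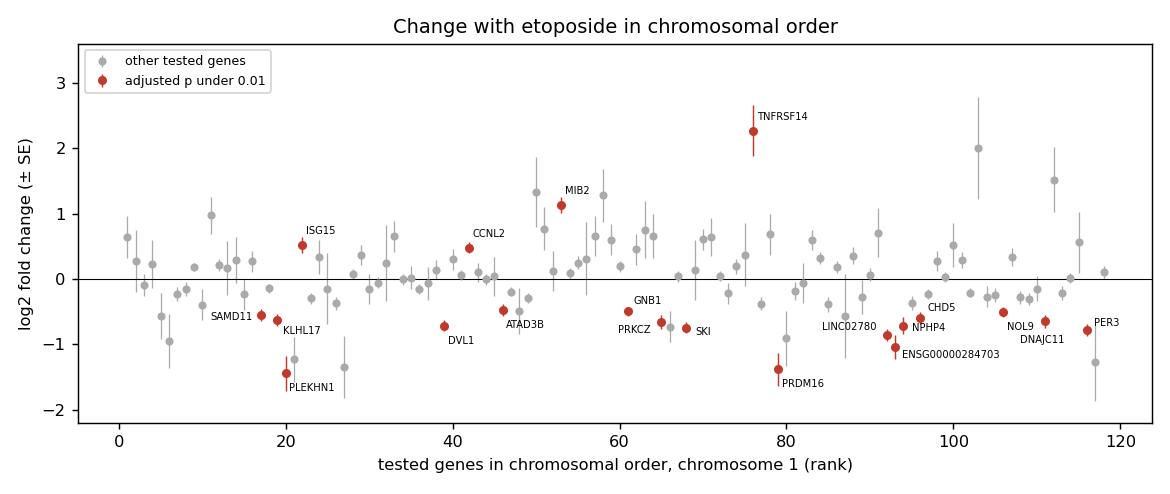
Log2 fold change of etoposide over control (± SE) for the 118 tested genes in their order along chromosome 1, with the 20 genes at an adjusted p under 0.01 in red and named. The 4 red genes above 0 lie between red genes below 0.

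Among protein-coding genes with enough counts, longer genes tended to have more negative changes. Over the 61 protein-coding genes with a mean of at least 100 normalized counts, Spearman's rho between the span of the gene and the log2 fold change was −0.42, and Pearson's r with the log10 span was −0.38. The rank correlation was weaker in wider sets, at −0.31 over all 76 tested protein-coding genes and −0.19 over all 118 tested genes, and it was 0.13 over the 29 lncRNA genes. These are correlations across genes, which share libraries and depth and are not independent replicates. The 21 shortest of these genes (1.48 to 13.7 kb) had a median change of 0.05 with 2 higher and 1 lower, and the next 20 genes had 0.01 with 1 higher and 3 lower. The 20 longest genes (29.2 to 984 kb) had −0.37 with 0 higher and 8 lower. Over all 118 tested genes 3.39% were higher and 13.6% lower, and differences between these groups of genes were not tested. Highly expressed genes also had more negative changes in this set (rho −0.32 with the mean normalized count).

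The relation to gene span was seen between libraries of different groups but also within the etoposide group. For single pairs of an etoposide and a control library, rho was −0.46 and −0.46 with etoposide 1 and −0.35 and −0.32 with etoposide 2. Between the 2 control libraries it was 0.10. Between the 2 etoposide libraries, which had the same treatment, it was −0.46. Span thus moved with a difference between replicates as well as with treatment, and the part of either in the result was not tested.

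**Figure D5:**
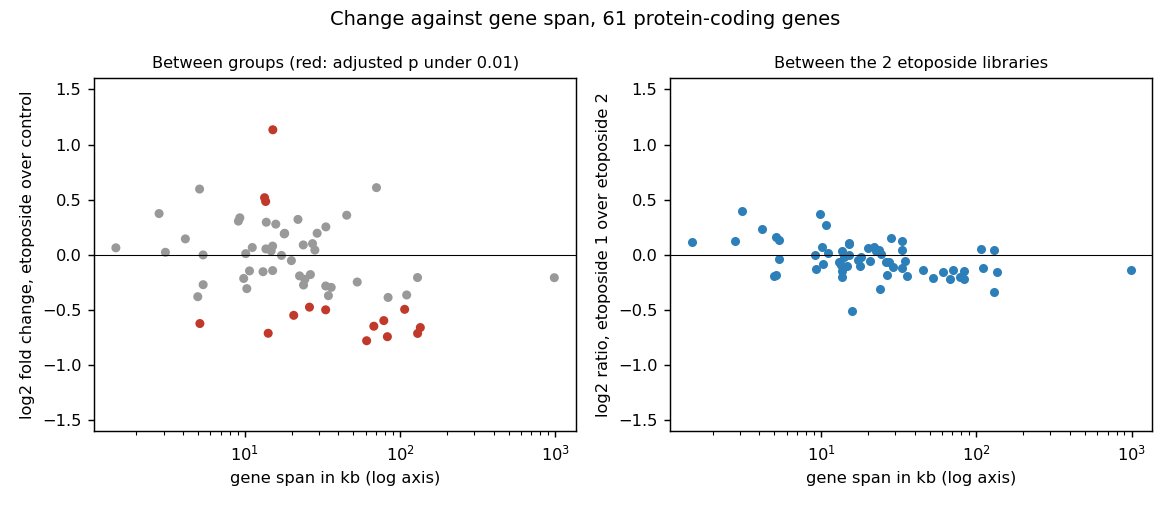
Gene span in kb on a log axis against the log2 fold change of etoposide over control (left, red at an adjusted p under 0.01) and against the log2 ratio of etoposide 1 over etoposide 2 (right), for 61 protein-coding genes. The left panel has a Spearman's rho of −0.42 and the right panel, within 1 treatment, −0.46.

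How small a change could be seen depended on the counts of the gene. The 46 tested genes under 100 normalized counts had a median 95% interval of ± 0.78 on the log2 scale, the 45 genes between 100 and 1000 had ± 0.27 and the 27 genes above 1000 had ± 0.17. At an adjusted p under 0.01 there were 3 genes in the lowest class, 10 in the middle class and 7 in the highest class. Of the 280 listed genes 70 had no count in any of the 4 libraries and 92 had counts but were not tested, so for these a change was not detectable at this depth.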

How the data were processed

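RNA-seq was performed on poly-A RNA of U2OS cells with paired-end reads. The authors aligned reads to GRCh38 with HISAT2 2.1.0, counted them per Ensembl gene with featureCounts (Subread 2.0.0), analysed them with DESeq2 1.30.1 and deposited raw counts, whole numbers with no normalization. The strand and multi-mapping options are not given in the sources used here. Groups and replicate numbers were taken from the labels. The incomplete last line of each control and adriamycin list was left out, and genes after it were not analysed here. The authors' comparison tables, which hold fold changes and p-values, were not used.

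Counts of the 4 libraries were tested by the quasi-likelihood test of edgeR 4.0.16, run in R 4.3.3, with TMM normalization, the default filter on low counts and Benjamini-Hochberg adjustment over 118 genes (biological coefficient of variation 7.00%). To normalize, each count was divided by its library's effective size, taken as a ratio to the geometric mean over the 4 libraries. The thresholds, an adjusted p under 0.01 and a log2 change over 1, are those of the study. CPM values of the markers use all counts of each etoposide library. A marker is not reported here. Intervals are 95% and cover the spread between these libraries. The script was tested on simulated data. Annotation used Python 3.11.15 with pandas 2.3.3, numpy 2.4.6 and scipy 1.17.1, and figures used matplotlib 3.10.9. All 280 identifiers matched GENCODE release 44.

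The members and gene lists were chosen with earlier results of these data known, from which some lists were taken over. Genes named were those over both thresholds, up to 5 in each direction with the smallest p that missed the fold threshold, all members of the lists, and the gene with the most counts. Any other gene is said to be chosen afterwards. Alternatives were DESeq2 size factors, upper-quartile scaling, library size with and without AGRN, the DESeq2 1.42.0 Wald test, 2 other filters on low counts, all 6 libraries in the fit, an adjusted p under 0.05, a block for the replicate number, and omission of each library in turn.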

Additional observations from a re-analysis of the deposited data

How the results depend on the processing

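The main counts were 2 genes higher and 3 lower over 2-fold, and 4 higher and 16 lower with any fold. Upper-quartile scaling gave 5 higher over 2-fold, 36 higher and 7 lower with any fold, and moved the median of all genes by 0.33 on the log2 scale. Library size alone gave 15 higher and 15 lower, and library size without AGRN gave 9 higher with any fold. With no filter on low counts 7 genes were higher with any fold, and with an adjusted p under 0.05 there were 4 higher over 2-fold and 10 higher and 25 lower with any fold. DESeq2 gave 2 higher and 2 lower over 2-fold, without ENSG00000284703, whose log2 fold change was −0.9998 there. It was −0.71 under upper-quartile scaling, −0.87 for library size alone and −0.90 without AGRN. TNFRSF14 was not tested where at least 10 counts were required in every library. For all of these the cause was not tested.

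Leaving out 1 library in turn gave 0 to 4 genes higher and 0 to 3 lower over 2-fold, and 0 to 11 higher and 0 to 16 lower with any fold. Calls were lost without either etoposide library. In these fits the lone etoposide library was assumed to vary like the controls, and the cause of the lost calls was not tested. No direction reversed for the 19 genes named by the rule that had an adjusted p under 0.01, over 279 alternative values. These genes were chosen by their p in the same libraries, and the setting with an adjusted p under 0.05 repeats the main values. The kept directions are therefore not independent evidence. Among other named genes 59 values changed sign, 38 of them with another scaling.

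In a fit with a replicate block the same 5 genes were called, and 2 genes were higher and 14 lower with any fold. The adjusted p by edgeR was then 0.0142 for CCNL2, 0.0202 for ISG15, 0.0118 for SAMD11 and 0.0154 for ATAD3B. Same-numbered libraries did not deviate together (Pearson's r = −0.18 over 104 genes), so the numbers were not taken to pair the libraries. A crossed pairing, chosen after seeing the data, gave 2 higher and 3 lower over 2-fold and 5 higher and 17 lower with any fold.

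Replicates of a group were separate libraries: 24.0% of 104 genes in the controls and 32.7% in the etoposide group differed beyond counting noise at a binomial p under 0.05.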

Other observations

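Control 1 lists 12 further genes that control 2 does not, and they were left out of the tests, which required a full line in all 4 libraries. PARK7, which encodes a protein protective against oxidative stress, was at 2538 normalized counts in control 1 and at 2617 and 2492 in the etoposide libraries. ERRFI1, an inhibitor of the EGF receptor, was at 1918 in control 1 and at 1199 and 1305 in the etoposide libraries. The lncRNA gene ENSG00000284747 was at 93.6 against 43.7 and 57.2. The other 9 genes had at most 4 counts in any of these 3 libraries.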
